A study of Xenopus laevis with 3 samples.

Results

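Cysteine-changing sites are positions in a protein where a coding variant removed a cysteine or put one in. They were taken from the per-site table of amino acid changes in Xenopus laevis, the African clawed frog. A site counted as a loss where the reference residue was cysteine, and as a gain where the new residue was cysteine and the reference was not arginine, glycine or proline. By this rule 487 sites lost and 349 gained a cysteine, together 836 of 29008 sites, in 764 of 11603 genes. Gains from arginine (172 sites) and glycine (59 sites) lie outside the rule and serve as a comparison. No site replaced proline by cysteine.

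The sites were found in RNA from whole tadpoles at Nieuwkoop-Faber stage 42, with 10 animals pooled per cross and rRNA depleted before sequencing. There were 3 libraries, 1 each from inbred albino offspring, inbred pigmented (J Strain) offspring and offspring of inbred albino by inbred J Strain matings. The stated depth was 30000000 to 47000000 paired-end reads of 100 bases. The cross letters in the labels contradict each other between fields, so the crosses are named here by their titles alone. No column of the tables names a library, so no site can be given to a strain, no spread between libraries could be measured, and each test below has sites as its units. The "reference" residue is the one in the authors' protein models and need not be the older or the more common allele.

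Cysteine has a thiol side chain. In secreted and membrane proteins, pairs of cysteines form disulfide bonds that hold a fold together, in zinc fingers cysteines hold the zinc ion, and in caspases, calpains, deubiquitinases and tyrosine phosphatases a cysteine carries out the catalysis. A lost cysteine can break such a bond or site, and a gained one can leave an unpaired thiol. Cysteine codons are a single base away from codons of serine, tyrosine, phenylalanine, tryptophan, arginine and glycine.

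All 487 losses went to one of these 6 residues. Serine replaced cysteine at 140 sites, tyrosine at 95, arginine at 95, phenylalanine at 76, glycine at 55 and tryptophan at 26. In the opposite direction, serine gave way to cysteine at 165 sites, tyrosine at 94, phenylalanine at 58 and tryptophan at 32. Over these 4 partners losses (337) and gains (349) were about equally many. Arginine was the exception, with 95 losses to it against 172 gains from it. Cysteine was an uncommon party to variation in both roles: it ranked 19th of 20 residues as the reference (1.68% of sites) and 19th as the new residue (2.0%, all gains counted). How common each residue is in the proteins was not counted, so these ranks do not tell how readily a cysteine varies.

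The first comparison asked whether removing a cysteine was predicted to harm the protein more often than adding one. PolyPhen-2 gives each change a probability of damage from 0 to 1, based mainly on an alignment of related proteins, and sorts it into benign, possibly damaging (from 0.447 in this table) or probably damaging (from 0.909). Both damaging classes together are called damaging here. Gains were the direction more often predicted to be damaging. Of 269 gains with a prediction 121 were damaging (45.0%, 95% Wilson interval 39.1 to 51.0), and of 373 losses 55 (14.7%, 11.5 to 18.7), beside 19.9% of all 24110 predicted sites and 19.4% of the sites without cysteine. The difference, loss minus gain, was -30.2 percentage points (-37.0 to -23.2, Fisher's exact test, two-sided, p = 3.79e-17).

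Probably damaging sites leaned the same way. They made up 25 of 373 losses (6.70%, 4.58 to 9.71) and 47 of 269 gains (17.5%, 13.4 to 22.5), beside 6.96% of all predicted sites. The loss share was thus close to the background in this class, and the gain share was above it. The median predicted probability was 0 for losses (quartiles 0 and 0.064) and 0.190 for gains (0.001 and 0.883), against 0.009 at sites without cysteine. A probability of exactly 0 was given to 189 losses (50.7%) and to 62 gains (23.0%), and one of at least 0.9 to 26 losses (6.97%) and 50 gains (18.6%).

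**Figure D1:**
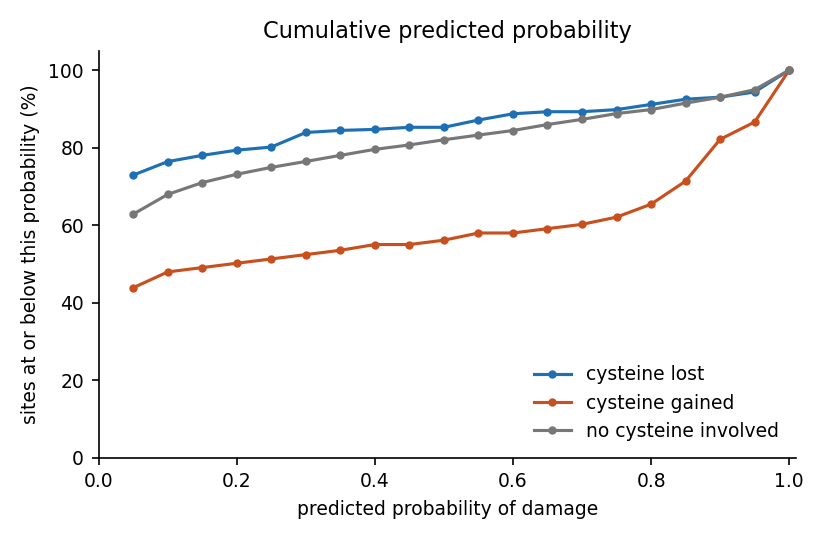
Cumulative share of predicted sites (y axis, percent) at or below each predicted probability of damage (x axis) for 373 losses (blue), 269 gains (orange) and 23272 sites without cysteine (grey). The orange line lies below the others from the first point, at 0.05 (43.9% of gains, 72.9% of losses, 62.8% of sites without cysteine), up to the last. At the right end, 18.6% of gains have a probability of at least 0.9. The blue line lies at or above the grey one over most of the range.

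Losses and gains do not have the same partners, because losses to arginine and glycine have no counterpart in the rule. The exchanges with serine, tyrosine, phenylalanine and tryptophan can be read in both directions. Over these 4 residues 47 of 261 losses (18.0%, 13.8 to 23.1) and 121 of 269 gains (45.0%) were damaging, a difference of -27.0 points (-34.3 to -19.2, Fisher's exact p = 2.09e-11). The size of the difference varied over these residues (likelihood ratio test of a logistic fit, n = 530 sites, p = 7.30e-05).

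Serine, the closest residue to cysteine in size and shape, showed the widest gap of the 4. Cysteine to serine was damaging at 13 of 115 sites (11.3%, 6.73 to 18.4) and serine to cysteine at 73 of 134 (54.5%, 46.0 to 62.7), a difference of -43.2 points (-52.6 to -32.2). Tyrosine, a bulky aromatic residue with a hydroxyl group, followed: 12 of 68 losses (17.6%) and 30 of 72 gains (41.7%) were damaging, a difference of -24.0 points (-37.6 to -8.89). Adjusted over the 74 pairs of residues with at least 10 predicted sites in each direction, Fisher's exact test gave p = 2.05e-12 for serine and 0.00451 for tyrosine. The serine call held under 8 alternatives (Fisher's exact adjusted p at most 0.000554). Among these, requiring at least 5 or at least 20 predicted sites per direction left the serine counts unchanged and altered only the adjustment. The tyrosine call was lost for probably damaging sites only (8.82% of losses and 9.72% of gains, Fisher's exact adjusted p = 1), at a probability of at least 0.9 (adjusted p = 1) and within genes of the homeolog pair table (adjusted p = 0.0820). In the last setting the difference was nearly as large, at -23.7 points, over 32 losses and 33 gains.

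The other aromatic partners gave no detectable gap. Cysteine to phenylalanine was predicted damaging at 18 of 61 sites (29.5%, 19.6 to 41.9), and the reverse at 10 of 42 (23.8%, 13.5 to 38.5), a difference of 5.70 points (-12.1 to 21.8, Fisher's exact adjusted p = 0.671). Tryptophan, the largest residue, had few sites: 4 of 17 losses (23.5%) and 8 of 21 gains (38.1%) were damaging, a difference of -14.6 points (-39.8 to 14.8, Fisher's exact adjusted p = 0.521). These intervals are wide enough to hold a difference as large as that of tyrosine for tryptophan, but not for phenylalanine. Outside the rule, arginine and glycine showed the widest gaps with cysteine: 2 of 71 losses to arginine (2.82%) against 81 of 145 gains from it (55.9%), and 6 of 41 losses to glycine (14.6%) against 32 of 51 gains (62.7%).

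**Figure D2:**
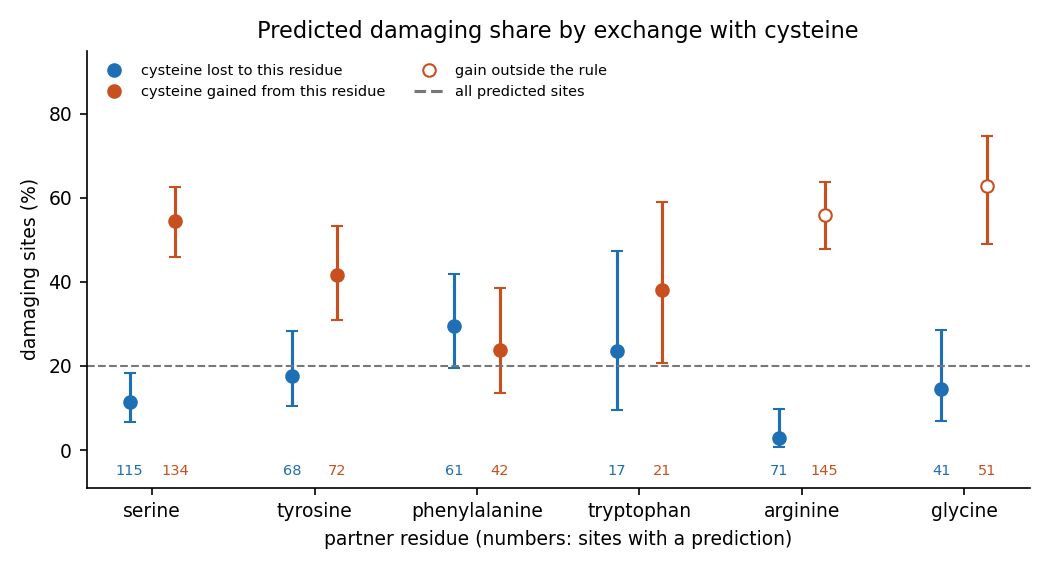
Damaging share of predicted sites (y axis, percent, with 95% Wilson intervals) for each partner residue (x axis, with the number of predicted sites), cysteine lost to it in blue and gained from it in orange, with open circles for the gains from arginine and glycine and a dashed line at the 19.9% of all predicted sites. Serine and tyrosine have separate intervals in the 2 directions, at 11.3% and 54.5% for serine, while those of phenylalanine and tryptophan overlap.

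An exchange that differs from its own reverse is common in these data. Of the 74 residue pairs tested, 56 (75.7%) differed between directions at an adjusted p under 0.05, and of the 6 pairs with cysteine 4 did, a share near that background. Ordered by the size of the difference, cysteine with arginine was 3rd, with glycine 6th, with serine 13th, with tyrosine 27th, with tryptophan 52nd and with phenylalanine 66th. A wide gap between directions is thus not particular to cysteine, and only the position of each pair in this order describes it.

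**Figure D3:**
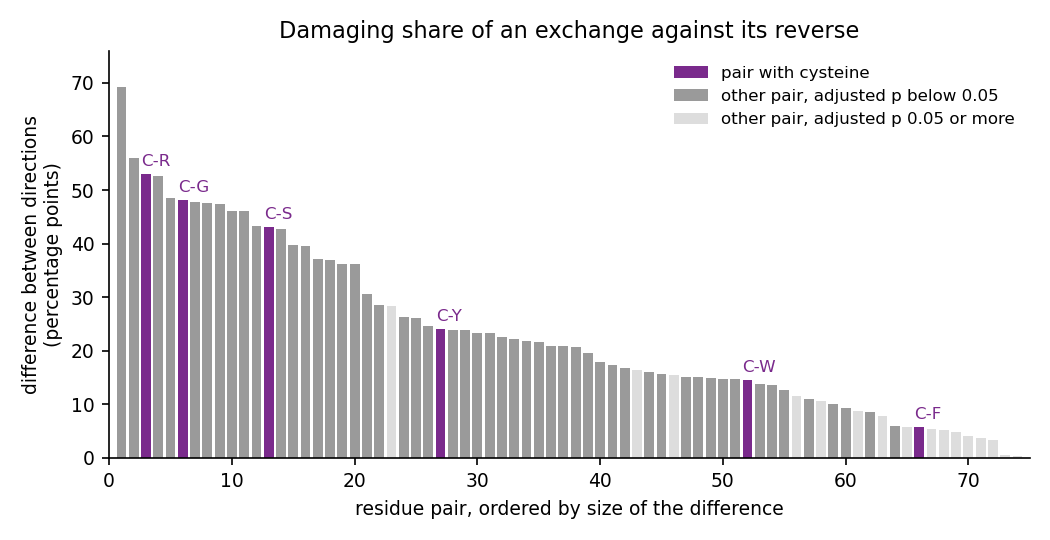
Absolute difference in damaging share between an exchange and its reverse (y axis, percentage points) for the 74 pairs of residues, ordered by size (x axis), with the 6 cysteine pairs in purple and the other pairs in dark grey where the adjusted p was below 0.05. Cysteine pairs run from 53.0 points for arginine to 5.70 points for phenylalanine and lie along the whole order.

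Each exchange type was also set against all other predicted sites. Of 144 types with at least 20 predicted sites 89 were called (61.8%), 44 with a higher (30.6%) and 45 with a lower share (31.2%). Among the 9 types of the rule that were tested, 4 were called, a smaller share than that background. Serine to cysteine was 8th from the top of the 144 types (Fisher's exact adjusted p = 1.23e-17) and tyrosine to cysteine 20th (adjusted p = 6.13e-05). Cysteine to arginine, at 2.82%, was 141st (Fisher's exact adjusted p = 0.000102) and cysteine to serine 102nd (adjusted p = 0.0323). The call for cysteine to serine was lost with at least 10 aligned residues (Fisher's exact adjusted p = 0.189), within the pair table (0.175) and under both stricter definitions of damage (0.302 and 0.237). Those for cysteine to arginine (0.124 and 0.125) and tyrosine to cysteine (0.492 and 0.517) were lost under the stricter definitions alone. Cysteine to phenylalanine was not called (adjusted p = 0.104) but was when only probably damaging sites counted (10 of 61, 16.4%, Fisher's exact adjusted p = 0.0255), and so was tryptophan to cysteine (7 of 21, 33.3%, adjusted p = 0.00153). Cysteine to tryptophan had 17 predicted sites and was not tested.

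By reference residue, 15 of 20 were called (75%), and cysteine ranked 15th from the top with 14.7% damaging beside 19.9% of all sites (Fisher's exact adjusted p = 0.0143). That call was lost when only probably damaging sites counted (Fisher's exact adjusted p = 0.919), at a probability of at least 0.9 (0.842) and with at least 10 aligned residues (0.133). By new residue, 15 of 20 were also called (75%), and cysteine ranked 2nd, with 234 of 465 gains of any origin damaging (50.3%, 45.8 to 54.8) against 19.3% of other sites (Fisher's exact adjusted p = 3.65e-48). This held in all 5 alternatives, with an adjusted p of at most 1.98e-21.

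PolyPhen-2 scores how well a residue suits a column of the alignment, once for the reference and once for the new residue, and a change is worse the more the reference scores above the new residue. These scores feed the prediction and are not independent of it, so they are given as a description with no test. Where the alignment held 0 residues, each residue had a single fixed score. That of cysteine was -4.015, the second lowest of 20 after tryptophan (-4.251), against -2.764 for serine, -2.511 for glycine, -3.086 for arginine, -3.220 for phenylalanine and -3.316 for tyrosine. Before any sequence was aligned, the score difference thus stood at -1.25 for cysteine to serine and at 1.25 for the reverse, and at 0.236 for cysteine to tryptophan.

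At predicted sites the reference cysteine of a loss had a median score of -4.24 (quartiles -4.74 and -2.23) and the residue that replaced it -2.85. At gains the reference scored -2.39 and the new cysteine -4.46 (quartiles -4.74 and -2.76). The median difference, reference minus new, was -0.807 at losses, 1.70 at gains and 0.215 at sites without cysteine. The new residue scored above the reference at 238 of 373 losses (63.8%, 58.8 to 68.5), at 69 of 269 gains (25.7%, 20.8 to 31.2) and at 42.4% of sites without cysteine. Losses to arginine and glycine, which have no counterpart among the gains, are part of these values. Over the 261 predicted losses to the 4 shared partners the reference median was -3.35 (quartiles -4.69 and -2.07) and the median difference -0.588. There the new residue scored higher at 150 sites (57.5%, 51.4 to 63.3). By exchange, the median difference was lowest for cysteine to arginine (-2.29) and, within the rule, highest for serine to cysteine (2.38). Cysteine to phenylalanine, the loss with the largest damaging share, had a median difference of 0.471, close to the 0.568 of its reverse. At 100 or more aligned residues, with few sites each, the medians of the losses differed in sign. They were 0.5 for phenylalanine (17 sites), 0.38 for tyrosine (14), 1.495 for glycine (4) and 0.073 for tryptophan (3). Those for arginine (11) and serine (21) were -1.525 and -0.313. Gains within the rule had medians from 0.519 (tyrosine) to 2.47 (serine) there.

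The damaging sites lay almost wholly on one side of the fixed value in each direction. At 193 losses (51.7%) the reference cysteine scored below -4.015, and 0 of these 193 were damaging. The score difference is this reference score minus the new one, so a low reference score leaves little room for a damaging call. The count of 0 is thus a description and not an estimate of a share. At the other 180 losses 55 were damaging (30.6%, 24.3 to 37.6). At 168 gains (62.5%) the new cysteine scored below -4.015, and 119 of these were damaging (70.8%, 63.6 to 77.2), against 2 of the other 101 (1.98%). The new score is part of the score difference too, so these shares are likewise a description.

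**Figure D4:**
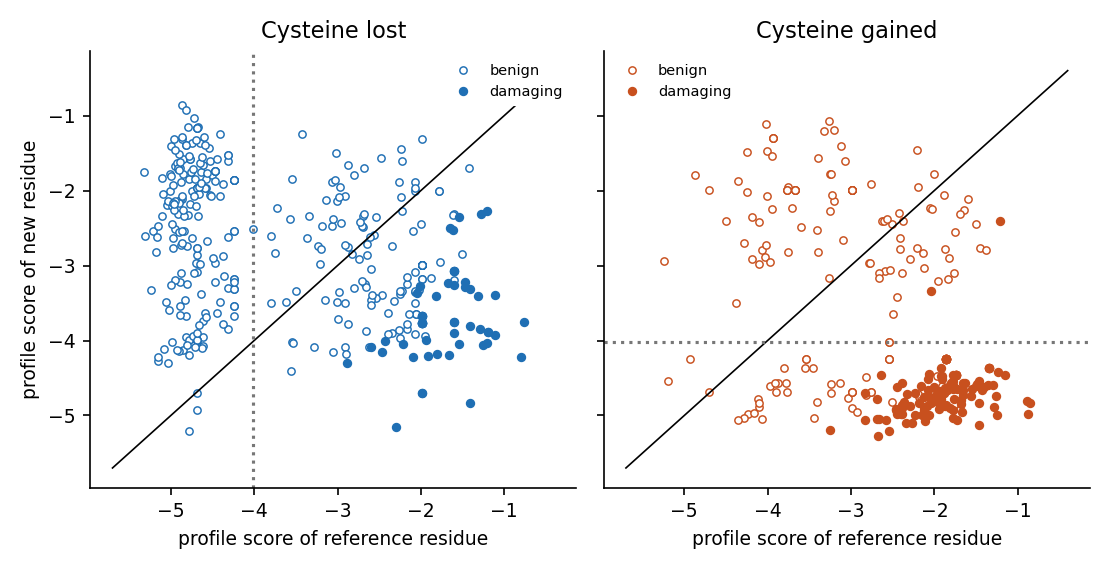
Profile score of the reference residue (x axis) against that of the new residue (y axis) for 373 losses (left) and 269 gains (right), with filled circles for damaging and open circles for benign sites, a diagonal where both score alike, and a dotted line at -4.015, the score of cysteine with 0 aligned residues. To the left of the dotted line lie 193 losses, all benign, and below the dotted line lie 168 gains, of which 119 are damaging.

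A second column is read here as telling whether a related protein in the alignment already carries the new residue. The file does not define it, and the reading follows the usual PolyPhen-2 output format. By this reading it does at 192 of 373 losses (51.5%, 46.4 to 56.5), at 99 of 269 gains (36.8%, 31.3 to 42.7) and at 57.0% of sites without cysteine. Among the 261 predicted losses to serine, tyrosine, phenylalanine or tryptophan it does at 120 (46.0%, 40.0 to 52.0). Arginine replacing cysteine was most often already present (51 of 71 sites, 71.8%) and phenylalanine least often (14 of 61, 23.0%). Where the new residue was present, few sites were damaging in either direction: 5 of 192 losses (2.60%) and 2 of 99 gains (2.02%), beside 3.10% at sites without cysteine. Where it was absent, 50 of 181 losses (27.6%, 21.6 to 34.6) and 119 of 170 gains (70.0%, 62.7 to 76.4) were damaging, beside 41.0%. The difference between loss and gain was -42.4 points among the latter (-51.1 to -32.3) and 0.584 points among the former (-4.68 to 4.24). For gains this is nearly the same split as that by score. Cysteine was present at 0 of the 168 gains where it scored below -4.015 and at 99 of the other 101. Like the scores, presence comes from the alignment behind the prediction and is not independent of it. These differences are therefore a description, given without their p-values.

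Another column, also not defined in the file, is read here as empty where no aligned sequence departs from the reference residue. It was empty at 37 of 373 losses (9.92%), at 29 of 269 gains (10.8%) and at 9.99% of sites without cysteine, so invariant positions were about equally frequent. Of these 37 losses 26 were damaging (70.3%, 54.2 to 82.5), of the 29 gains all 29 (88.3 to 100), and of such sites without cysteine 76.9%. The median alignment at these positions held 3 residues for both losses and gains, so the invariance rests on few sequences. This column also comes from the alignment behind the prediction, so these damaging shares are a description and not independent of it.

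Alignment depth was alike in the 2 directions, with a median of 43 aligned residues at predicted losses (quartiles 4 and 77) and 41 at gains (4 and 75), and 44 at sites without cysteine. The damaging share was higher for gains in each depth range, with losses to arginine and glycine counted among the losses. It was 16.0% of 94 losses and 36.2% of 69 gains with 1 to 4 aligned residues, 7.69% of 26 and 30.8% of 13 with 5 to 9, 6.06% of 33 and 47.2% of 36 with 10 to 29, and 12.0% of 150 and 52.5% of 101 with 30 to 99. At 100 or more aligned residues the shares came nearer, 25.7% of 70 losses (16.9 to 37.0) and 44.0% of 50 gains (31.2 to 57.7). Adjusted over these 5 ranges and the split by presence above, Fisher's exact p was 0.00928, 0.178, 0.000284, 1.38e-11 and 0.0691 in order of depth. The interval of the losses in that deepest range begins at the 16.9% of sites without cysteine.

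**Figure D5:**
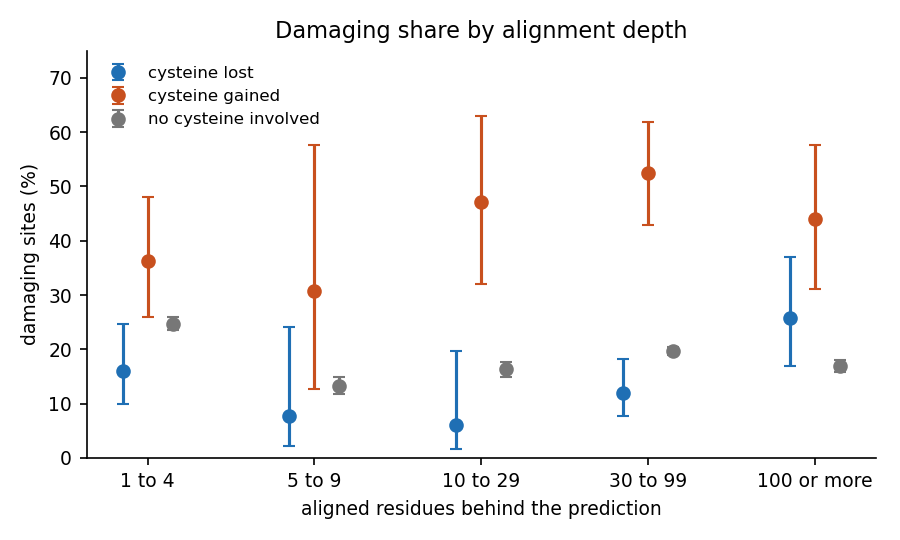
Damaging share (y axis, percent, with 95% Wilson intervals) by the number of aligned residues behind the prediction (x axis) for losses (blue), gains (orange) and sites without cysteine (grey). Gains lie above losses in all 5 ranges, by the least at 100 or more aligned residues (44.0% against 25.7%).

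Sites without a prediction made up 114 of 487 losses (23.4%, 19.9 to 27.4) and 80 of 349 gains (22.9%, 18.8 to 27.6), beside 16.7% of sites without cysteine. The difference between loss and gain was 0.486 points (-5.39 to 6.19, Fisher's exact p = 0.934). Positions near the start of the protein were also more frequent among the members than in the table. Within the first 30 residues lay 58 losses (11.9%, 9.33 to 15.1) and 37 gains (10.6%, 7.79 to 14.3), beside 6.48% of sites without cysteine, a difference that was not tested. Tryptophan exchanges had the largest shares there, 8 of 26 losses and 6 of 32 gains.

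Members were spread over many genes. Of the 764 genes 704 held 1 cysteine-changing site, 49 held 2, 10 held 3 and 1 held 4, and 34 held both a loss and a gain. The genes with a loss had a median of 3 missense and 3 synonymous sites and those with a gain 4 and 3, against 1 and 2 over all genes. Genes with more sites have more chances to hold a cysteine change. L and S copies, the homeologs on the long and the short subgenome of this allotetraploid, held 93 and 117 losses and 72 and 80 gains. The S share was 55.7% of losses (49.0 to 62.3) and 52.6% of gains (44.7 to 60.4), beside 54.6% of sites without cysteine. A symbol was paired with 258 members in 238 genes, and the genes named below come from these. Among sites of genes with a symbol, 23 of 131 predicted losses and 49 of 102 predicted gains were damaging, beside 21.4% of all predicted sites of these genes.

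The losses with the highest probabilities among named genes with at least 10 aligned residues were C410Y in znf250.L, C614F in kdm6a.L and C31F in slc44a4.S, each at 0.999. In such names the reference residue comes first, then the position in the authors' protein model, then the new residue. The zinc finger protein znf250.L had 1799 aligned residues at this position, a reference score of -0.794 and a new score of -4.22. The histone demethylase kdm6a.L, which removes methyl groups from lysine 27 of histone H3, had 208, and the choline transporter-like slc44a4.S had 62. C40F in rai1-like.S, related to a transcriptional regulator, followed at 0.998, and C168F in atp7b.S and C330F in srgap3.L at 0.997. The copper pump atp7b is known for cysteine motifs that bind copper in its cytosolic part, and srgap3 is a GTPase-activating protein. The circadian transcription factor clock.S (C328F, 0.996), the RNA-binding protein raver1.S (C167Y, 0.989) and the Sin3 complex member brms1l.L (C125Y, 0.965) were also among the 10.

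All 10 of these losses in named genes went to an aromatic residue, phenylalanine (6), tyrosine (3) or tryptophan (1). Of all 373 predicted losses 61, 68 and 17 went to these residues. Genes without a symbol held equally high losses to other residues, such as C30G in Xelaev18030349m (0.997) and C388R in Xelaev18021582m (0.994). In 0 of the 10 was the new residue present in the alignment, beside 51.5% of all predicted losses. In 6 no aligned sequence departed from cysteine, beside 9.92%. The 10 and the 5 below were picked by probability, which rests mainly on the alignment, so these counts are a description. The 5 losses at the other end all had a probability of 0 with 99 to 204 aligned residues, and in all 5 the new residue was already present. They were C803Y in the Wnt antagonist axin2.S, C1285S in fry.L, C167S in the chaperonin subunit cct8.S, C184G in the thioredoxin-like txnl1.L and C204W in slmap.S. The reference cysteine of axin2.S scored -4.92 and its tyrosine -1.70, the reverse of the order in znf250.L.

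The gains with the highest probabilities were Y170C in frmd3.S, which has a FERM domain, and W122C in slc5a7-like.1.S, related to the neuronal choline transporter, both at 1 with 187 and 103 aligned residues. W60C in vopp1.S (0.998), S122C in plekhj1.S (0.996), S120C in gadd45gip1.L, a mitochondrial protein (0.993), and S1379C in znf318-like.S (0.992) came next. They were followed by W822C in fnip1-like.S, a folliculin-interacting protein (0.990), S429C in cdca7.L (0.988), and S139C in ptplb.S and F980C in the sterol-regulated transcription factor srebf2.L (0.977 each). In 0 of these 10 was cysteine present in the alignment, beside 36.8% of all predicted gains. In 6 no aligned sequence departed from the reference, beside 10.8%. Serine was the reference at 5 of them and tryptophan at 3, beside 134 and 21 of all 269 predicted gains. These 10 gains and the 5 at the low end were picked by probability, so their makeup restates the predictions and is a description. The 5 gains at the low end, all with a probability of 0, were F353C in the GTPase-activating protein stard13.S, S69C in the mitotic kinase nek7.L, Y68C in the Rac exchange factor dock4.S, S29C in the copine cpne4.L and Y456C in znf280d.S. Cysteine was already present in the alignment at all 5.

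Of the genes with a symbol, 3 held at least 3 cysteine-changing sites. In srebf2.L, with 10 missense and 2 synonymous sites in all, F980C was probably damaging (0.977), C706Y was benign (0.214) and C1016R was benign (0), on 59 or 60 aligned residues each. The anchoring protein akap9.S held 2 gains and 1 loss, F2642C, S3035C and C3142F, none with a prediction. The cytolinker dst.S held C2147S, benign at 0 with 21 aligned residues, and C3877F and Y4053C without a prediction. Genes without a symbol, chosen after their values were seen, included Xelaev18007803m with C638G, C646G and C654G at a regular spacing of 8 residues, none with a prediction. Another, Xelaev18011188m, held 3 gains, F29C, F53C and Y216C, each benign at 0 with 159 to 171 aligned residues. Altogether 6 positions carried 2 different cysteine changes. These can only be losses, since a gain has cysteine as its single new residue.

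Both homeologs held a cysteine-changing site in 12 pairs, 6 of which have a symbol. The valyl-tRNA synthetase vars was the 1 of these 6 with a loss alone in L and a gain alone in S that both had a prediction: C127R in vars.L was benign (0, with 51 aligned residues), and S971C in vars.S possibly damaging (0.884, with 238). S971C was the single missense site of vars.S, beside 15 synonymous ones. Nestin held gains in both copies, S887C (0.883, with 11 aligned residues) and Y1176C (0.718, with 3) in nes.L and S1492C (0, with 2) in nes.S. The apolipoprotein gene apob lost a cysteine to phenylalanine in both copies, at different positions of the 2 models, C1509F in apob.L (0) and C1029F in apob.S (0.073), both benign. In syde2-like the losses C709S in L (0.271) and C488F in S (0.002) and the gain S1418C in S (0.104) were all benign, and the sites of akap9 and akap13-like had no prediction.

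Gene lists drawn up for protein classes in which cysteines are known to work are described by their counts, beside the 2.58% of sites in all genes with a symbol that change a cysteine (258 of 10005). Cysteine proteases and caspases held 10 among 135 missense sites (7.41%, 4.07 to 13.1), 7 losses and 3 gains. The SUMO protease senp5.S (C513G, 0.903), the calpain capn2.2.L (C39S, 0.846) and the caspase casp10.S (S483C, 0.761) had the highest probabilities with at least 10 aligned residues. The deubiquitinases usp1.S, usp2.S, usp19.S, usp32.L and usp34.L held benign sites, and usp42.L gained a possibly damaging cysteine (Y1022C, 0.883) with 1 aligned residue. The gains S483C and Y1022C have serine and tyrosine as the reference, so they remove no cysteine. Whether any of the lost cysteines is catalytic was not examined. The tyrosine and dual specificity phosphatase list held 7 among 136 (5.15%, 2.52 to 10.2). Damaging were 2 of 4 predicted losses and 1 of 3 predicted gains, beside 26.8% of all predicted sites of this list. Over all losses and gains the shares were 14.7% and 45.0%. In this list C1050F in the receptor phosphatase ptpru.L was probably damaging (0.924, with 394 aligned residues), and the gain S14C in ptpn1.S was benign (0.002). The gene ptplb.S entered that list by its symbol, and is known as a dehydratase of fatty acid elongation, not a phosphatase. Its S139C was the 1 damaging gain of the list, and the counts of the list include it.

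Zinc finger proteins held 13 among 374 sites (3.48%, 2.04 to 5.86), 6 losses and 7 gains. Damaging sites were 2 of 5 predicted losses and 4 of 6 predicted gains, beside 25.7% of all predicted sites of this list and 14.7% and 45.0% of all losses and gains. Among them were C410Y in znf250.L, S1379C in znf318-like.S and S1483C in zfhx4.L (0.966). In the disulfide-rich EGF-like, laminin, LDL receptor and Notch family 2 of 100 sites changed a cysteine (2.0%, 0.550 to 7.0), both losses, among them C15Y in efemp1.L (0.598, with 1 aligned residue). Fibronectin, thrombospondin, ADAM and collagen proteins held 1 among 153, C754Y in col4a6-like.S, at a probability of 0. Protease inhibitors, complement and coagulation genes held 0 among 59 sites. If the limit is set at 3 counts of the total, this allows a share of up to 5.08%. Dyneins, kinesins and myosins held 0 among 99 (up to 3.03%). Cytochrome P450 and oxidoreductase genes also held 0, among 64 (up to 4.69%).

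Solute carriers, ABC transporters and channels held 8 among 272 sites (2.94%, 1.5 to 5.70), of which slc44a4.S, atp7b.S and slc5a7-like.1.S were described above and the other 5 were benign. The copper pump atp7b.S entered that list by its symbol and belongs to none of these classes. The remaining lists held between 1 and 3 members each. RING, HECT and E2 ubiquitin enzymes held 3 among 135: S623C in rnf19a.S (0.381) and C363S in herc4.S (0.016), both benign, and C633S in trafd1.S, possibly damaging (0.773) with 4 aligned residues. The gene trafd1.S entered that list by its symbol and is not known as a RING, HECT or E2 enzyme. Protein kinases held 3 among 169 (with nek7.L and C43S in mapk4.S at 0.004, both benign, and 1 damaging loss), receptors 3 among 183 (with F86C in gpr45.S at 0.003), intermediate filaments the 3 nestin sites among 111, and thiol enzymes C184G in txnl1.L among 48. The interval of the cysteine protease list lies above the 2.58% of all genes with a symbol, and those of the other lists hold it. These intervals are not adjusted for the number of lists, and the lists were chosen with earlier results of these data known. No test was made of the lists, and none is called enriched.

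A protein structure was matched to 10 members, 7 losses and 3 gains. The accessible surface of the reference residue, where 1 is full exposure, was recorded for 8 of them. It was lowest at C413S (0.010) and C85S (0.019) in genes without a symbol, both possibly damaging at 0.866 and 0.890. In raver1.S the reference cysteine of C167Y had 0.048, with a gain in side chain volume of 85 units, and in capn2.2.L that of C39S had 0.105. C142S, in a gene without a symbol, had 0.143 and was benign (0.138). The most exposed, C247S at 0.343, was also benign (0.005). Among the gains, S309C in the farnesyltransferase subunit fntb.S was benign (0.346) at an accessibility of 0.144, while the more exposed S248C (0.192) was possibly damaging (0.908). The gain F461C, with no accessibility recorded, was probably damaging at 1, and so was the loss C215G at 0.993. With 10 sites these values describe single positions only. They come from the same PolyPhen-2 output as the prediction and may feed it, so they are not independent of it.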

How the data were processed

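Coding variants were read from 3 tables of the whole series. The authors deposited, per the file headers, a PolyPhen-2 table (HumVar model) with a predicted probability of damage per change, a fraction from 0 to 1, and with scores of the alignment behind it. They also deposited counts of missense and synonymous sites per gene, and gene names with L and S copies (8660 pairs, 6832 with a symbol). CASAVA 1.8.2, Trimmomatic, TopHat and SAMtools are named in the submitters' processing notes. How variants were called and filtered, and on which build, is not given in the sources used here. Read depth per site was not analysed here, so intervals cover counting error only.

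Shares have 95% Wilson intervals and differences Newcombe intervals. Fisher's exact test (two-sided, SciPy 1.17.1) was used, with Benjamini-Hochberg adjustment over all exchange types, residues or residue pairs and a threshold of 0.05. Sites of 1 gene are not independent, and a logistic fit with errors clustered by gene (statsmodels 0.14.6) was an alternative. The scripts were tested on simulated data. Residue pairs were adjusted over all 74 and not over the 4 planned, and the reverse comparison, the splits by score, alignment and depth, and the residue heterogeneity test were added after the data were seen. The members and lists were chosen with earlier results of these data known. Lists were matched by symbol. Named sites are in genes with a symbol: with at least 10 aligned residues, the 10 highest and 5 lowest probabilities per direction and up to 3 sites per list, and further all genes with at least 3 sites and homeolog pairs with sites in both copies. Of the sites this rule names, 2 are not reported here. Other names were chosen after their values were seen.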

Additional observations from a re-analysis of the deposited data

How the results depend on the processing

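The difference between loss and gain kept its direction and call under 9 alternatives, between -35.6 and -10.8 points (Fisher's exact test or clustered logistic fit, largest p = 0.000581). The difference over the shared partners kept its direction under 8 (-31.2 to -9.43) and its call under the 7 that have a test (Fisher's exact test or clustered logistic fit, largest p = 0.00115). With each of these 4 partners weighted equally, a setting added after seeing the data, this difference was -19.0 points. Damaging shares of losses and gains were 6.70% and 17.5% with probably damaging sites only, and 6.97% and 18.6% at a probability of at least 0.9. The number of losses and gains was 253 and 187 with at least 10 aligned residues, 210 and 152 within the pair table, and gains numbered 580 with arginine and glycine included. Counts of called exchange types, residues and residue pairs stayed within 1.5 times their value. No paired analysis was possible because no column names a library and each group has 1. Few aligned residues limit the predictions: 32.2% of predicted losses and 30.5% of gains rested on fewer than 10.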
